A study of Mus musculus with 4 samples.

Results

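Carboxypeptidase M and its relatives were followed by 7 genes, Cpm, Cpd, Cpe, Cpn1, Cpz, Cpxm1 and Cpa3, of 22865 gene symbols in the count table. Cpm was chosen by its measured difference between the genotypes compared here, and the other 6 by family name, so the difference of Cpm is a description and carries no test. The RNA came from lung γδ T cells of female C57Bl/6 mice, 10 weeks old, which lacked Aire (Aire-/-, 2 libraries) or carried both intact copies (Aire+/+, 2 libraries). Aire lets thymic epithelial cells display proteins of other tissues to developing T cells. The sort kept viable cells positive for CD45 and the γδ receptor, and negative for TCRβ, CD27 and Vg1,2,4,5, which the submitters call Tgd17, and each library came from 500 cells. No label says whether the duplicates of a genotype came from separate mice, so a p-value here reflects the spread of the libraries at hand, and that spread may be technical.

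Metallocarboxypeptidases remove single amino acids from the C-terminal end of peptides and proteins. Those of the regulatory branch work outside digestion: they trim the basic residues lysine and arginine, and so complete prohormones or change the receptor preference of kinins, complement anaphylatoxins and growth factors. Cpm encodes a member held on the cell surface by a GPI anchor, known from lung epithelium and, in human, from maturing macrophages. Cpd encodes a membrane enzyme that cycles through the trans-Golgi network, Cpe the prohormone-processing enzyme of secretory granules, and Cpn1 the catalytic subunit of the plasma carboxypeptidase made in liver. Cpz encodes a matrix-bound enzyme with a frizzled-like domain, and Cpxm1 a secreted relative that lacks residues needed for catalysis. Cpa3 stands apart, since it encodes a granule enzyme of mast cells that belongs to the digestive A and B branch and prefers other C-terminal residues than lysine and arginine.

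The windows of 250 bases before the annotated start are shown for Cpm, the member that differed, for Cpd, its most abundant relative by count, and for Cpa3, the mast cell gene, because they begin from unlike promoter sequence (RefSeq, GRCm38.p6). Capitals mark each match, on either strand, to 4 motifs that were searched: the GC box GGGCGG, the TATA box TATAA, the CCAAT box CCAAT and the AP-1 site TGANTCA. No 2 matches overlap in the windows shown.
Cpm: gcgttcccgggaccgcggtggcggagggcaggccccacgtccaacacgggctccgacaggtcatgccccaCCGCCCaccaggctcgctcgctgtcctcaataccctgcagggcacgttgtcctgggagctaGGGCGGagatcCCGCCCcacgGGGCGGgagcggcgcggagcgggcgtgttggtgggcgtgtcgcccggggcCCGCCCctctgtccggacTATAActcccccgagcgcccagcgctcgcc
Cpd: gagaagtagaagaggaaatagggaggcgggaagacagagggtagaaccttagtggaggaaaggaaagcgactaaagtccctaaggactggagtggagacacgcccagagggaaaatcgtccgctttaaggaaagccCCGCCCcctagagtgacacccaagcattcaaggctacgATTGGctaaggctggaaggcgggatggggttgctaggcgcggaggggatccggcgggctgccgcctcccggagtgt
Cpa3: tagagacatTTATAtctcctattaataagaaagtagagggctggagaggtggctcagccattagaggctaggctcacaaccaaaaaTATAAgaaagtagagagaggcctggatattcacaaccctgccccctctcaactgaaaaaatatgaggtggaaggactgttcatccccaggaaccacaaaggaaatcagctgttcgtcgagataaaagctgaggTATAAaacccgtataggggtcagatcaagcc

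The Cpm window (chr10:117629250-117629499, plus strand) held 5 GC boxes and a TATA box that begins 30 bases before the start. At least 5 GC boxes stood in 1.93% of the 32851 windows of this length in the table, and a GC box together with a TATA box in 3.23%. The Cpm window was 74.4% G and C with 30 CpG pairs, where the median window had 52.4% and 6. The Cpd window (chr11:76847009-76847258, minus strand) held 1 GC box and 1 CCAAT box at 58.4% G and C. The Cpa3 window (chr3:20242182-20242431, minus strand) held 3 TATA boxes and no GC box at 44.4% G and C. Over all windows, 32.7% held a GC box, 22.8% a TATA box, 33.8% a CCAAT box and 6.75% an AP-1 site, and the AP-1 letters were in none of these 3 windows. Of the 7 members 6 had such a window, Cpe being the exception.

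The Aire-/- libraries held 1144060 and 1106891 counts in all, and the Aire+/+ libraries 1265239 and 1153344. Aire had 0 counts in every library, so the deleted gene checked no label. The 15 γδ T17 markers were counted in every library, and they and transcripts of other cell types shifted between the genotypes, as given beside Cpm further on. Of the 22865 genes, 9783 passed the filter on low counts and were tested across genotypes. Among the members, Cpm, Cpd and Cpe passed and 4 did not.

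Cpm had 55 and 60 counts in the Aire-/- libraries, against 250 and 219 in the Aire+/+ libraries. Both Aire-/- libraries were low and both Aire+/+ libraries high, with a gap between the genotypes far wider than that within either. CPM, in capitals, is used here for the unit only, a count divided by the effective library size (TMM). Cpm averaged 53.4 ± 4.48 CPM in Aire-/- against 195 ± 10.4 in Aire+/+ libraries (SD, n = 2 each), a log2 fold change of -1.86 (SE 0.24, 95% interval -2.38 to -1.35). The higher library of a genotype exceeded the lower by 1.13-fold in Aire-/- and by 1.08-fold in Aire+/+. By edgeR's quasi-likelihood test at an adjusted p under 0.05, 0.0204% of the 9783 genes were called lower in Aire-/- libraries against 0% higher, with 271 lower and 274 higher at an unadjusted p under 0.05. Cpm is 1 of the 2 genes called lower, and it was chosen for that. Both Aire-/- values lay below both Aire+/+ values for 17.3% of tested genes and above them for 17.1%, and of the 3 tested members only Cpm had such a gap. Fewer cells that carry a transcript and less of it per cell cannot be told apart in bulk libraries.

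**Figure D1:**
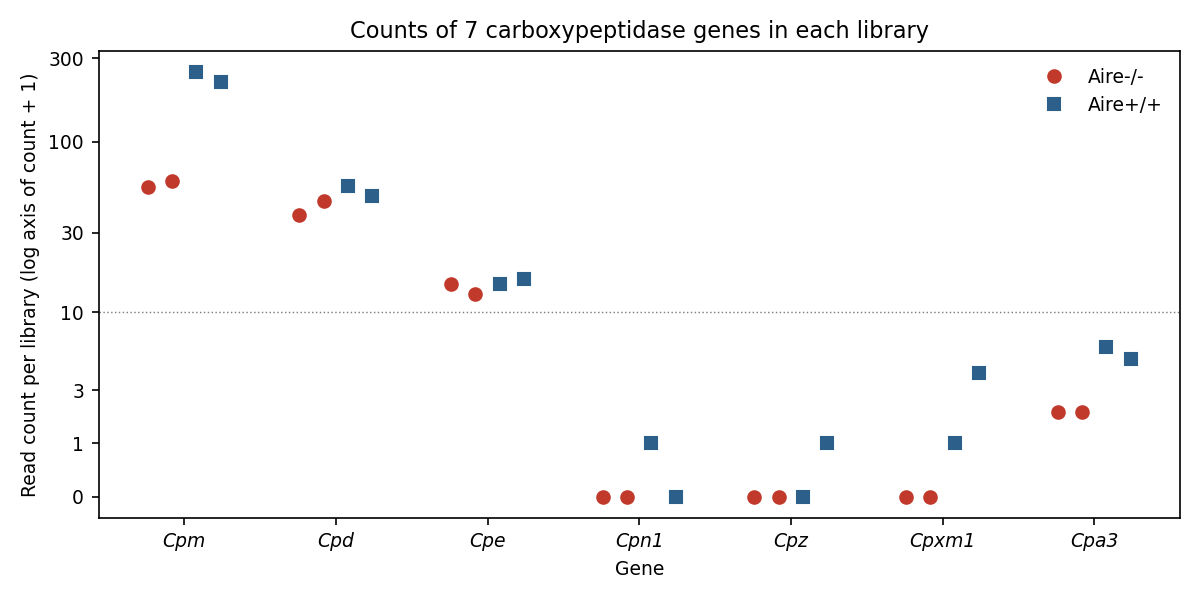
Read counts (log axis of count + 1) of the 7 carboxypeptidase genes, with 1 point per library, Aire-/- as red circles left of Aire+/+ as blue squares, and a dotted line at 10 counts, the minimum the filter starts from. Cpm stands at 55 and 60 counts in Aire-/- libraries against 250 and 219 in Aire+/+ libraries, Cpd and Cpe lie close together in both genotypes, and the other 4 genes have 6 counts or fewer.

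Cpd, which trims cargo passing through the trans-Golgi network, had 38 and 46 counts in the Aire-/- libraries, against 56 and 49 in the Aire+/+ libraries. Scaled to library size the genotypes overlapped, at 34.7 and 43.4 against 45.3 and 41.9 CPM. On the log2 scale Cpd differed by -0.16 (SE 0.33, adjusted p = 0.99, edgeR), and the 95% interval of -0.87 to 0.55 allows an Aire-/- level from 0.546 to 1.47 times that of Aire+/+.

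Cpe, whose product acts on prohormones in granules, had 15 and 13 counts in the Aire-/- libraries, against 15 and 16 in the Aire+/+ libraries. The genotypes overlapped, with means of 13.0 ± 1.02 and 12.9 ± 1.11 CPM (SD, n = 2 each). On the log2 scale Cpe differed by 0.01 (SE 0.54, adjusted p = 1.00, edgeR), and the sign of so small a value turned with the scaling. Its 95% interval of -1.16 to 1.18 reaches from 0.448 to 2.26 times the Aire+/+ level, so a change of up to about that size was not detectable at this depth.

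The interval of Cpm (-2.38 to -1.35) does not meet that of Cpd or of Cpe. The difference between Cpm and its relatives was given no test, because Cpm was picked on it. As a ratio of levels per kilobase within each library, the Cpm level was 2.02 and 1.82 times that of Cpd in Aire-/-, and 6.24 and 6.24 times that of Cpd in Aire+/+. The other 6 members together summed to 50.2 and 57.5 CPM in Aire-/- against 63.8 and 64.2 in Aire+/+ libraries. This sum was lower in both Aire-/- libraries, by a much smaller step, as were 17.3% of all tested genes. Cpd and Cpe each overlapped, and the sum includes the few counts of Cpa3, Cpxm1, Cpn1 and Cpz, so no shift of the relatives is read from it.

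Cpa3, the mast cell granule enzyme, had 2 and 2 counts in the Aire-/- libraries, against 6 and 5 in the Aire+/+ libraries. Its values did not overlap, but at 4 against 11 counts in all the Aire-/- to Aire+/+ ratio was 0.406 with an exact 95% interval of 0.0943 to 1.37, which holds both 1 and the ratio of Cpm. Cpxm1, the relative without catalytic residues, had 0 and 0 counts in the Aire-/- libraries, against 1 and 4 in the Aire+/+ libraries. The exact 95% interval of its Aire-/- to Aire+/+ ratio runs from 0 to 1.22, so neither direction was shown. Cpn1 had 0 and 0 counts in Aire-/- against 1 and 0 in Aire+/+ libraries, and Cpz 0 and 0 in Aire-/- against 0 and 1 in Aire+/+ libraries, so neither was measurable. A count of 0 allows, at 3 counts per library, up to 2.74 and 2.83 CPM in Aire-/- samples and 2.42 and 2.57 in Aire+/+ samples. These intervals and limits cover counting error only, since reads without molecular identifiers are not independent molecules. Whether Cpm alone of the family differs can therefore be asked of Cpd and Cpe, and not of these 4.

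Levels of different genes were set side by side as CPM per kilobase of annotated exon. In Aire-/- libraries Cpm was at 8.95 ± 0.752, Cpe at 4.98 ± 0.391, Cpd at 4.69 ± 0.735 and Cpa3 at 1.22 ± 0.028, with Cpn1, Cpz and Cpxm1 listed at 0 (SD, n = 2 each). In Aire+/+ libraries Cpm was at 32.6 ± 1.73, Cpd at 5.23 ± 0.282, Cpe at 4.95 ± 0.425, Cpa3 at 3.01 ± 0.266, Cpxm1 at 0.870 ± 0.760, Cpz at 0.191 ± 0.270 and Cpn1 at 0.110 ± 0.155. Cpm was the most abundant member per kilobase in both genotypes, and Cpd and Cpe did not differ from each other beyond their spread in either. Their order depends on the length used: per kilobase of the longest transcript, in Aire+/+ libraries Cpe was at 6.10 and Cpd at 5.49.

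Other carboxypeptidases, taken from 2 fixed lists, show how far the wider class moved. Of 15 further metallocarboxypeptidases of the same fold that were counted, 2 were tested, and 0 were called in either direction. Agtpbp1, a tubulin deglutamylase, differed by 0.36 on the log2 scale (SE 0.37, adjusted p = 0.97, edgeR) and Agbl5, which removes branch-point glutamates from tubulin, by -0.02 (SE 0.34, adjusted p = 0.99, edgeR). Of 10 carboxypeptidases of other folds 5 were tested, with 0 called, 4 below 0 and a median log2 fold change of -0.10, where the median over all tested genes was 0.01. Prcp, a lysosomal serine carboxypeptidase that cleaves after proline, had 47 and 54 counts in Aire-/- against 90 and 84 in Aire+/+ libraries. It was the 1 gene of this list whose genotypes did not overlap, and it did not pass (-0.62, SE 0.29, adjusted p = 0.90, edgeR). Of all tested genes, 17.3% lay lower without overlap. Cndp2, a cytosolic dipeptidase, stood at 59.7 ± 13.7 CPM in Aire-/- against 76.4 ± 15.4 in Aire+/+ libraries (SD, n = 2 each; -0.35, adjusted p = 0.96, edgeR).

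**Figure D2:**
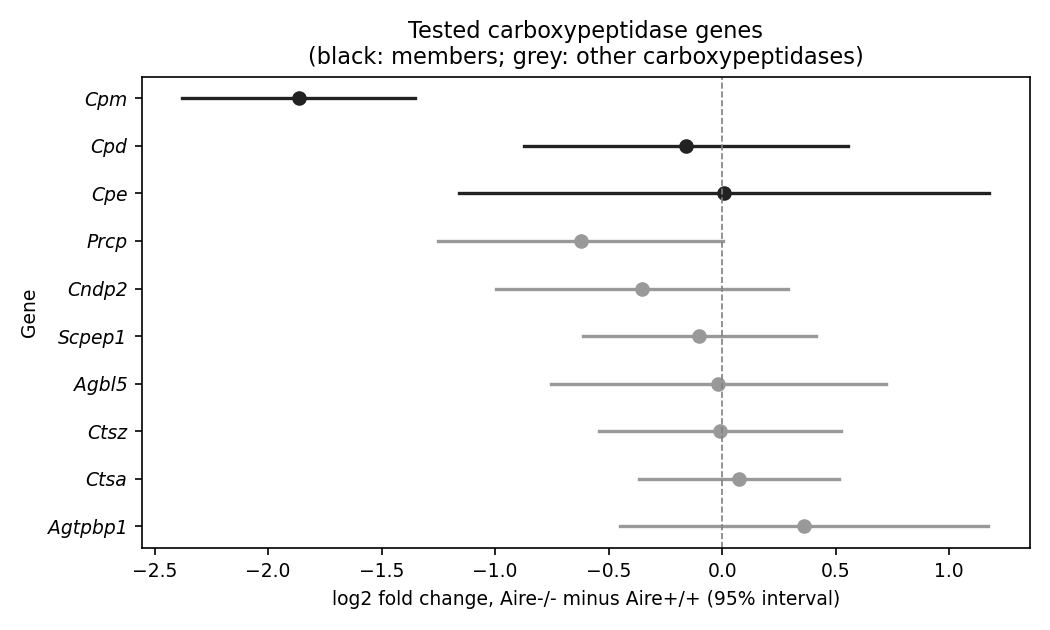
Log2 fold changes (Aire-/- minus Aire+/+) with 95% intervals for the tested carboxypeptidase genes, the 3 members in black above 7 others in grey. Cpm lies at -1.86, and the intervals of the other 9 genes include 0.

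The enzymes that prepare substrates for this family and the pathways its products enter were read from the same fit, and 0 genes of these lists were called in either direction. Among proprotein convertases, which expose the basic residues that Cpd and Cpe trim, 3 of 9 were tested. Furin, the ubiquitous convertase, stood at 92.3 ± 0.111 CPM in Aire-/- against 85.8 ± 10.5 in Aire+/+ libraries (SD, n = 2 each), a difference of 0.11 on the log2 scale (adjusted p = 0.99, edgeR), and Mbtps1, the site-1 protease, had a log2 fold change of -0.19. Most of the kinin system was too low to test, with 2 of 13 genes passing the filter, Xpnpep1, a cytosolic aminopeptidase (0.25), and Ece1, the endothelin-converting enzyme (-0.16), both of which act on kinins. The kinin receptor genes Bdkrb1, with 4 and 6 counts in Aire-/- against 0 and 0 in Aire+/+ libraries, and Bdkrb2, with 0 and 0 in Aire-/- against 0 and 3 in Aire+/+ libraries, were named after their values were seen.

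Of 14 complement genes counted, 4 were tested, with 2 above and 2 below 0. Cd55, a GPI-anchored inhibitor of complement, had 203 and 166 counts in Aire-/- against 325 and 261 in Aire+/+ libraries. It lay lower without overlap, as did 17.3% of all tested genes. Its log2 fold change of -0.51 (SE 0.21) did not pass (adjusted p = 0.89, edgeR). C3ar1, an anaphylatoxin receptor, had 3 and 12 counts in Aire-/- against 14 and 11 in Aire+/+ libraries (-0.56, SE 0.75).

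In the EGF and CXCL12 list, named for substrates of carboxypeptidase M, 7 of 12 genes in the table were tested, 5 above and 2 below 0, with a median of 0.63. Areg, an EGF receptor ligand made by lymphocytes in tissue repair, differed by 0.63 on the log2 scale (SE 0.38, adjusted p = 0.93, edgeR), and Egf, with 8 and 1 counts in Aire-/- against 13 and 11 in Aire+/+ libraries, by -1.24. Among other peptidases of the cell surface 8 of 14 were tested, 4 on each side of 0. Adam17, the sheddase of tumour necrosis factor and EGF family ligands, had 108 and 120 counts in Aire-/- against 214 and 163 in Aire+/+ libraries, without overlap (-0.56, SE 0.23, adjusted p = 0.89, edgeR). Lnpep, an aminopeptidase, lay the other way at 0.34, also without overlap. In this list 1 tested gene lay lower without overlap and 2 higher, beside 17.3% and 17.1% of all tested genes.

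Arginine released by these enzymes can feed nitric oxide and polyamine synthesis, and 7 of 15 genes of arginine use were tested, 5 above and 2 below 0. Slc7a6, an exchanger of basic and neutral amino acids, had 95 and 59 counts in Aire-/- against 44 and 38 in Aire+/+ libraries (1.06, SE 0.33, adjusted p = 0.83, edgeR), and Arg1, the cytosolic arginase, 18 and 18 in Aire-/- against 9 and 12 in Aire+/+ libraries (0.92). Neither overlapped. In this list 3 tested genes lay higher without overlap and 0 lower, beside 17.1% and 17.3% of all tested genes. Of the GPI anchor synthesis genes that equip Cpm for the membrane, 24 of 27 were tested, 14 above and 10 below 0 with a median of 0.06. Pigt, a subunit of the transamidase that attaches the anchor, had 16 and 20 counts in Aire-/- against 40 and 46 in Aire+/+ libraries (-1.09, SE 0.40), and Pigb, a mannosyltransferase, lay the other way (1.12, SE 0.51), both without overlap and at an adjusted p = 0.89 (edgeR). Among the 24 tested GPI anchor genes 7 lay higher without overlap and 5 lower, beside 17.1% and 17.3% of all tested genes.

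Cpm lies on chromosome 10 (117629500 to 117687352, GRCm38, plus strand, ENSMUSG00000020183). The annotated gene Gm25709 overlaps it and was not among the genes counted, and counting by strand is not given in the sources used here. Of the 10 nearest tested genes on each side, reaching 2245 kb before and 2598 kb after its start, 0 were called, 13 lay above 0 and 7 below, and the median log2 fold change was 0.13. Both Aire-/- values lay below both Aire+/+ values for 0 of these 20 genes and above them for 3, beside 17.3% and 17.1% of all tested genes. Mdm2, the ubiquitin ligase of p53 and the next gene along, had 74 and 138 counts in Aire-/- against 153 and 69 in Aire+/+ libraries (0.11, SE 0.37). Helb, a DNA helicase (0.91, SE 0.39), and Nup107, a nuclear pore protein (0.40, SE 0.31), had the smallest p, at adjusted p = 0.89 and 0.95 (edgeR). The lowest value of the 20 was that of Lyz2, a bactericidal enzyme of macrophages and neutrophils that was picked once its values were known, at -1.39, with 1 and 61 counts in Aire-/- against 186 and 2 in Aire+/+ libraries.

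**Figure D3:**
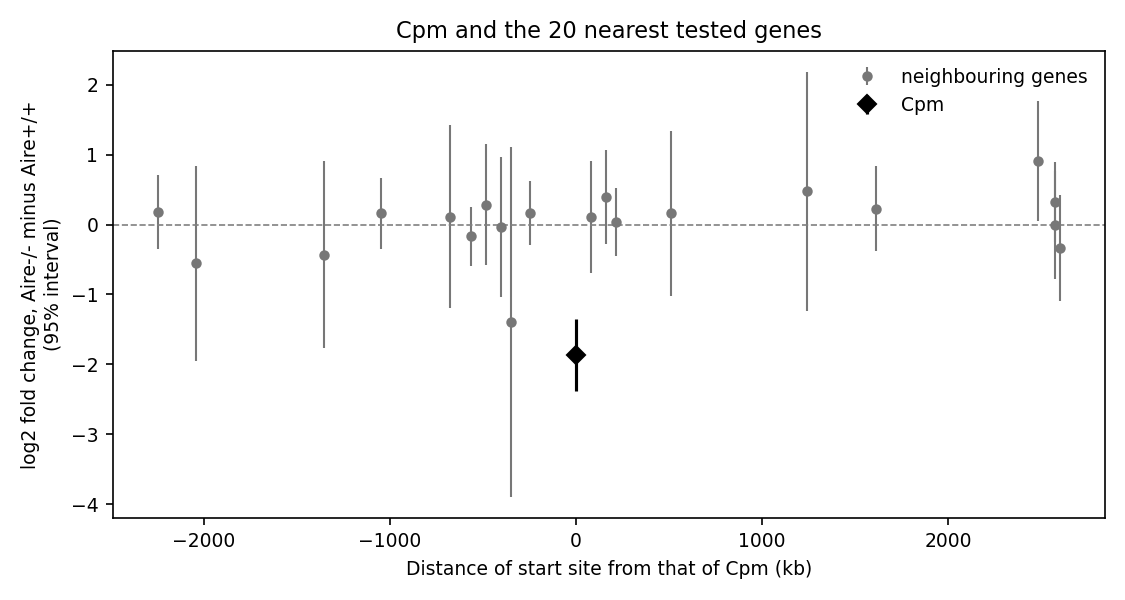
Log2 fold change (Aire-/- minus Aire+/+, with 95% intervals) of Cpm, as a black diamond, and of the 20 nearest tested genes, in grey, by the distance of their start sites in kilobases. The neighbours lie between -1.39 and 0.91 and Cpm at -1.86.

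The tested genes whose profile over the 4 libraries was most like that of Cpm, by the Euclidean distance of centred log2 CPM, were Mtx2 (distance 0.21), Mrc1 (0.29), Mtch1 (0.31), Egr1 (0.33) and Nusap1 (0.34). Mtx2 and Mtch1 encode mitochondrial outer membrane proteins, Mrc1 the mannose receptor of macrophages, Egr1 an early response transcription factor and Nusap1 a spindle protein. Egr1 had 14 and 19 counts in Aire-/- against 76 and 82 in Aire+/+ libraries, and Mtx2 3 and 4 in Aire-/- against 18 and 19 in Aire+/+ libraries. Likeness over 4 libraries follows the genotype difference that chose Cpm and was given no test.

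Of 12 marker lists, 5 summed to less in both Aire-/- libraries than in either Aire+/+ library, 1 summed to more, and 6 overlapped. Of the lower sums, the antibody-secreting gap came mostly from Igj, the dendritic gap from class II genes, and most of the endothelial sum from Pecam1, as given below. The list that ran the other way was that of the sorted cells. The 15 γδ T17 markers summed to 9031 and 10080 CPM in Aire-/- against 6013 and 8747 in Aire+/+ libraries, and all 15 had log2 fold changes above 0 (median 0.38), 9 of them without overlap and 0 called, where 17.1% of all tested genes lay higher without overlap. The 4 CD3 chains among them, the shared signalling part of T cell receptors, overlapped at 1390 and 1504 against 1004 and 1532 CPM.

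The 11 B cell markers summed to 3046 and 2336 CPM in Aire-/- against 4793 and 3022 in Aire+/+ libraries, with 0 markers at 0 in any library. The sums overlapped narrowly, but all 11 markers lay below 0, as Cpm did, with a median log2 fold change of -0.47, 6 of them without overlap and 0 called. Over all tested genes, 17.3% lay lower without overlap. The 10 dendritic cell markers summed to 5721 and 4674 CPM in Aire-/- against 11160 and 6976 in Aire+/+ libraries. Of the 5 tested, 4 lay below 0, all 4 without overlap, the median was -0.76 and 0 were called. Nearly all of that sum came from 4 genes of class II antigen presentation, which B cells express as well, led by H2-Ab1 (log2 fold change -0.84, SE 0.21, adjusted p = 0.67, edgeR) and H2-Aa (-0.76, SE 0.22, adjusted p = 0.78, edgeR). The other 6 dendritic cell markers summed to 63.0 and 43.4 CPM in Aire-/- against 21.8 and 34.2 in Aire+/+ libraries, higher in both Aire-/- libraries.

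The 18 macrophage and monocyte markers summed to 961 and 1225 CPM in Aire-/- against 1118 and 929 in Aire+/+ libraries, mostly from Ccr2 and Apoe. Without these 2 the other 16 summed to 42.0 and 83.9 in Aire-/- against 232 and 63.3 in Aire+/+ libraries, an overlap on few counts. Lyz2 alone gave 1 of 46 and 61 of 89 of these counts in Aire-/- libraries. In Aire+/+ libraries it gave 186 of 287 and 2 of 74, and the sum was not taken without it. Of the 6 tested markers 5 lay below 0, with a median log2 fold change of -1.17 and 0 called. Of the 16 markers 6 and 7 were at 0 in Aire-/- libraries, against 3 and 5 in Aire+/+ libraries, and the complement genes C1qa, C1qb and C1qc had at most 1 count each. Cd14, the co-receptor for lipopolysaccharide, was picked after its values were seen. It had 0 and 0 counts in Aire-/- against 32 and 11 in Aire+/+ libraries, and Mrc1 2 and 3 in Aire-/- against 13 and 12 in Aire+/+ libraries. The most abundant marker, Ccr2, lay the other way without overlap, at 828 and 1057 CPM in Aire-/- against 638 and 776 in Aire+/+ libraries (0.41, SE 0.19). So did 9 of the 15 γδ T17 markers, and which cells carried Ccr2 was not tested. Apoe lay lower (-0.95, SE 0.37) and overlapped.

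Set against these lists, on scales added after the data were seen, the gap in Cpm stayed on 3 of 4. Cpm was chosen for its gap in the same counts, so these ratios are a description. They do not test which cells Cpm came from. Per 1000 CD3 chain counts Cpm had 36.1 and 37.6 counts in Aire-/- against 201 and 122 in Aire+/+ libraries. Per 1000 B cell marker counts it had 16.5 and 24.2 in Aire-/- against 42.2 and 62.0 in Aire+/+ libraries, and per 1000 dendritic cell marker counts 8.78 and 12.1 in Aire-/- against 18.1 and 26.9 in Aire+/+ libraries. Per 1000 counts of the 16 macrophage markers the genotypes overlapped, at 1196 and 674 in Aire-/- against 871 and 2959 in Aire+/+ libraries, with only 46 to 287 such counts in a library. Lyz2 gave 1 and 61 of them in Aire-/- against 186 and 2 in Aire+/+ libraries, so this scale leans on 1 uneven gene.

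The 8 markers of antibody-secreting cells summed to 444 and 594 CPM in Aire-/- against 1892 and 1319 in Aire+/+ libraries. Igj, the joining chain of secreted antibody, was the other gene called lower. It had 0 and 4 counts in Aire-/- against 1674 and 827 in Aire+/+ libraries and made most of this gap. Without Igj the other 7 overlapped, at 444 and 590 CPM in Aire-/- against 539 and 612 in Aire+/+ libraries. The most abundant of these 7, Sdc1, had 226 and 322 counts in Aire-/- against 197 and 303 in Aire+/+ libraries. The sum was not taken without Sdc1. Of the 6 tested markers, Igj included, 4 lay below 0 and 2 above. Of them 3 lay lower without overlap and 0 higher, beside 17.3% and 17.1% of all tested genes. The 13 lung epithelial markers were near the limit of detection, at 30.1 and 19.8 CPM in sum in Aire-/- against 41.2 and 43.6 in Aire+/+ libraries, with Sftpc, the surfactant protein of alveolar epithelium, at 1 to 3 counts. The 7 endothelial markers summed to 128 and 121 CPM in Aire-/- against 152 and 204 in Aire+/+ libraries. Most of this was Pecam1, at 113 and 104 CPM in Aire-/- against 138 and 125 in Aire+/+ libraries. Cldn5 had 3 and 3 counts in Aire-/- against 6 and 50 in Aire+/+ libraries. The 10 mast cell and basophil markers, which bear on Cpa3, summed to 18.3 and 21.7 in Aire-/- against 44.4 and 28.2 in Aire+/+ libraries. The most abundant were Hdc, with 1 and 6 counts in Aire-/- against 25 and 10 in Aire+/+ libraries, and Kit. Kit had 9 and 6 counts in Aire-/- against 10 and 6 in Aire+/+ libraries, and the tryptase gene Tpsb2 was at 0 in all 4. Of these 10 markers 0 passed the filter. The part of B cells, dendritic cells, macrophages, antibody-secreting cells, epithelium and endothelium in the values of Cpm, and of mast cells in those of Cpa3, was not tested.

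**Figure D4:**
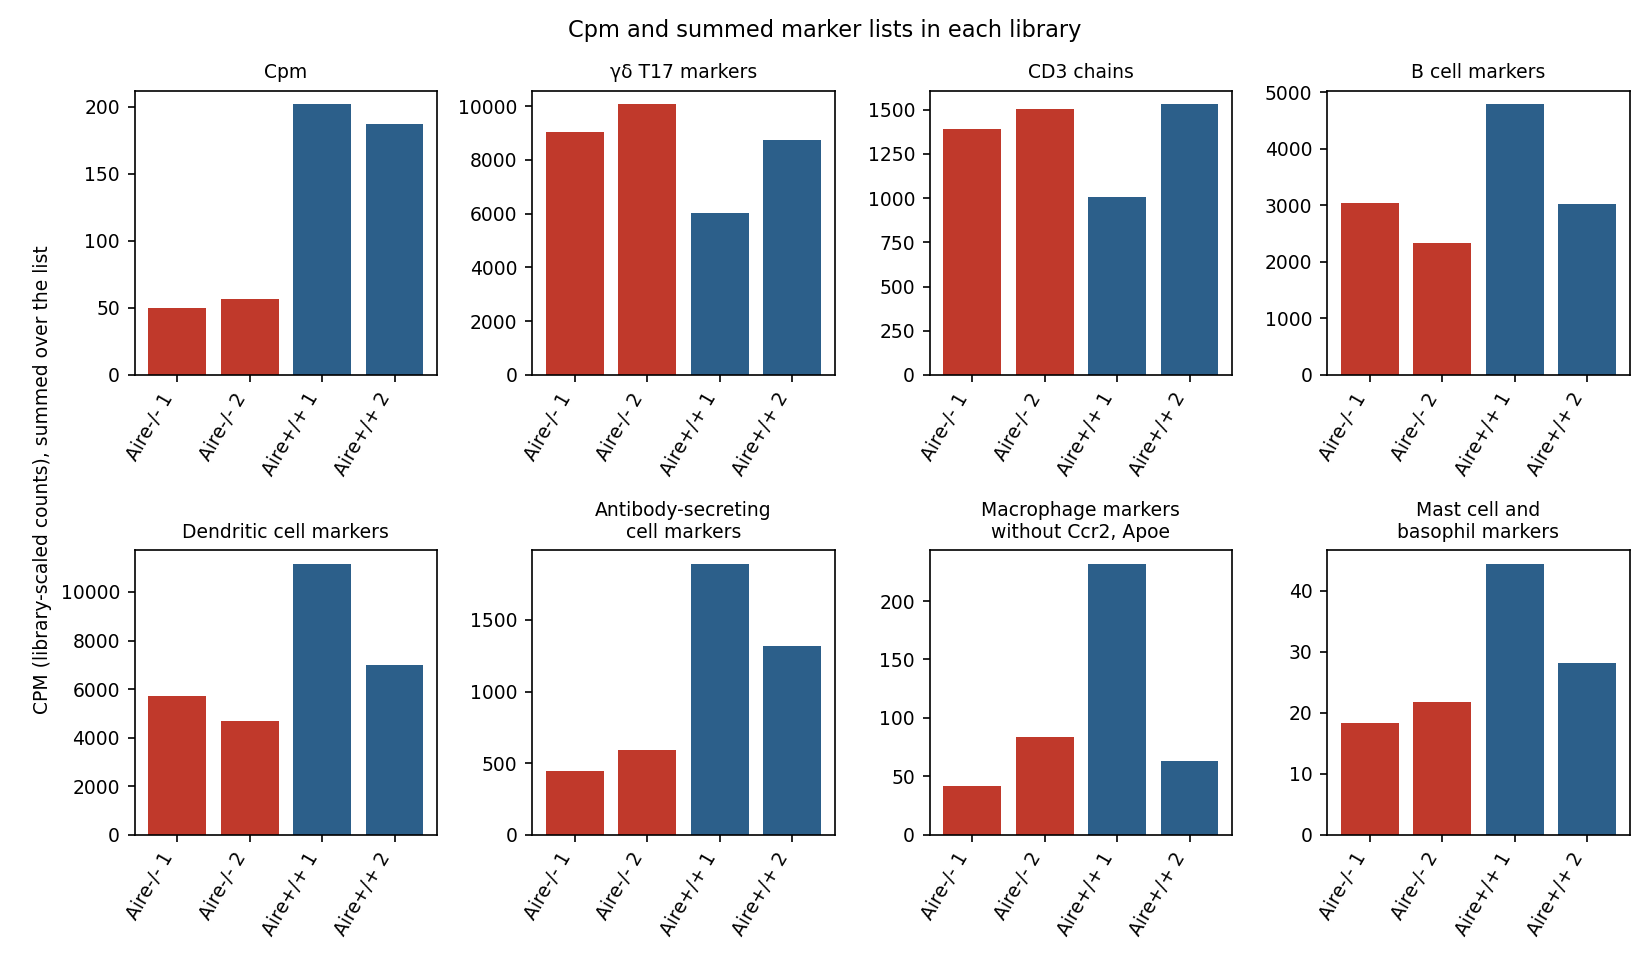
CPM of the gene Cpm and of 7 summed marker lists in each library, Aire-/- in red left of Aire+/+ in blue, with a separate scale per panel starting at 0. Cpm and the dendritic, antibody-secreting and mast cell sums are lower in both Aire-/- libraries, the γδ T17 sum is higher in both, and the CD3, B cell and macrophage sums overlap.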

How the data were processed

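The values are raw read counts in whole numbers, as the authors deposited them in a single gene-by-library table, and the libraries were made by Smart-Seq2, per the labels' protocols. TopHat2 2.0.10, Cufflinks 2.2.1 and mm10 are named without role, per the submitters' processing notes. For the counting step, its annotation, strand and duplicates, nothing is stated in those notes.

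Genotypes came from the titles. Counts of all 4 libraries were fitted with edgeR 4.0.16 (R 4.3.3) by genotype alone, with TMM factors, a filter by filterByExpr at a minimum count of 10 and a total of 15, quasi-likelihood F tests and Benjamini-Hochberg adjustment over all 9783 genes tested. The SE is the absolute log2 fold change over the square root of F, and intervals use the moderated degrees of freedom. Libraries of a genotype were no copies (chi-square per degree of freedom 4.1 in Aire-/- and 4.0 in Aire+/+). Alternatives used DESeq2 1.42.0, limma 3.58.1, other factors and filters, robust dispersion, a replicate block, Rn45s left out, and each library left out. The fit was tested on simulated data. Gene positions and exon lengths came from GENCODE M21, promoter windows from RefSeq, both on the assembly that mm10 names. Count ratios have exact conditional binomial intervals.

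Members and lists were chosen with earlier results of these data known. Named genes are the members, the 2 smallest p of each related list and of the neighbours, the 2 most abundant of a marker list where the list is described gene by gene, the 5 profiles nearest to Cpm, Aire and Mdm2. Cd14, C1qa, C1qb, C1qc, Sftpc, Tpsb2, Lyz2, Bdkrb1 and Bdkrb2 were picked after their values were seen, and Igj as the other gene called. The leading genes of the B cell list are not reported here.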

Additional observations from a re-analysis of the deposited data

How the results depend on the processing

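Cpm lay below 0 in all 13 alternatives fitted, with log2 fold changes from -1.96 to -1.78. It passed the threshold in every alternative that kept all libraries. Its calls in fits that left a library out are not reported here, because a genotype then rests on 1 library. All 13 alternatives refit the counts on which Cpm was chosen, so passing again is no independent test. On scales added after seeing the data the log2 fold change of Cpm was -2.13 per count of the CD3 chains, -1.36 per count of B cell markers, -1.11 per count of dendritic cell markers and -1.03 per count of macrophage markers without Ccr2 and Apoe, where the genotypes overlapped. Cpd was below 0 and not called in the 13, and without Aire-/- replicate 1 it stood at -0.0016. Cpe was not called in any of the 13 and changed sign with upper-quartile factors (-0.028) and without single libraries, where it ran from -0.084 to 0.095, from values within a few counts of each other. Without the filter all 7 members were fitted, with 26 genes called lower and 21 higher in Aire-/- libraries, and the adjusted p of Cpa3, Cpxm1, Cpn1 and Cpz was 0.95 each; these 4 could not be fitted otherwise. limma-voom called 1 gene lower, which was Cpm, and did not call Igj. Leaving out a library moved the counts to between 6 and 42 lower and between 5 and 21 higher, the lone library being assumed to vary like the pair. The replicate numbers shared only a label (correlation of the replicate differences across genes -0.077), and as a replicate block they gave 4 lower and 2 higher and Cpm at -1.86. The cause of these changes was not tested. At this depth, genes of a few counts were not measurable.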
